A study of Mus musculus with 16 samples.

Results

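The macrophage genes of the mouse thyroid gland were followed through a study of the transcription factor GLIS3 and of dietary iodine. The group holds 34 genes, chosen by symbol from a table of 24623 distinct gene symbols in 25611 entries. Each of the 34 had 1 entry in the table, and 33 passed a filter on low counts that left 16630 genes to be tested. *Marco*, a scavenger receptor, did not pass. The members fall into 7 roles, which are growth factors and their receptors, identity and pan-leukocyte genes, Fc receptors and ITAM adaptors, complement, scavenger and pattern receptors, resident macrophage receptors, and the TAM receptors with their ligand.

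RNA was sequenced from whole thyroid glands of 16 female C57BL/6 mice, 4 in each of 4 groups. WT(ND) mice were wild type and fed a normal diet (ND), and WT(LID) mice were wild type and fed a low-iodine diet (LID). Mice of the *Glis3*-Pax8Cre(ND) group and of the *Glis3*-Pax8Cre(LID) group, labelled with the alleles Glis3<tm2Amj> and Pax8<tm1.1(cre)Mbu> and with B6;129 in that label, lost exon 5 of *Glis3* through a Cre recombinase expressed from the *Pax8* locus, and received the same diets. The labels give an age of 1 month, and the study's methods give 4 weeks of age and 6 days on the diet. The labels also give an age at weaning, under 4 weeks and the same for all 16 mice. Weaning and the days on the diet therefore lay close in time. The part of recent weaning in the differences between diets was not tested. *Pax8* is active in thyroid follicular cells and is not a gene of macrophages, so the deletion was not directed at macrophages. Some of the 34 genes are also expressed by other cells, epithelial cells among them, as given below. Whether the deletion changed those genes within the targeted cells was not tested. Whether WT mice carried floxed or Cre alleles is not given in the sources used here.

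Tissue macrophages live in nearly every organ, where they take up dying cells, debris and microbes. Their survival depends on the receptor CSF1R and its ligands CSF1 and IL34, and they carry Fc receptors for antibody-coated particles, scavenger receptors, and TAM receptors that bind apoptotic cells through the bridging ligand GAS6. They are a major source of the complement component C1q, and in the thyroid they lie between and around the follicles, close to capillaries.

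Promoter sequences were looked up because 3 members, the C1q chains, moved almost as 1 gene in the results below, whereas the scavenger receptors *Mrc1* and *Cd163* parted from them under the low-iodine diet. RefSeq promoter windows on GRCm38.p6, from 250 bases before to 50 after the start site, were at hand for 25 of the 34 members, in 28 windows. *C1qa* was not among them. The 250 bases before the start site are given 5′ to 3′ on the gene's strand for *C1qb* (chr4:136886201-136886450, minus strand), *C1qc* (chr4:136892915-136893164, minus strand), *Mrc1* (chr2:14229164-14229413, plus strand) and *Cd163* (chr6:124304401-124304650, plus strand). Capitals mark GAGGAA or its reverse complement TTCCTC, the purine-rich core bound by PU.1, a transcription factor of the myeloid lineage.
C1qb: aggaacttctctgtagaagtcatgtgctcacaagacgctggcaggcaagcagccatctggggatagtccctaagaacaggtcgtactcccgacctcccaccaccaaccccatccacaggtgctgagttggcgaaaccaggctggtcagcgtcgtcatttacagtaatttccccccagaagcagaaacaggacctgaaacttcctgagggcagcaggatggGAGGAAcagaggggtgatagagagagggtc
C1qc: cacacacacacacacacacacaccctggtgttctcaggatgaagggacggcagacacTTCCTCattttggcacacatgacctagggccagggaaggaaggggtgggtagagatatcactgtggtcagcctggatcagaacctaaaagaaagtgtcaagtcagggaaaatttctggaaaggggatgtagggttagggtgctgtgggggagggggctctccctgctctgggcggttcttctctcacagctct
Mrc1: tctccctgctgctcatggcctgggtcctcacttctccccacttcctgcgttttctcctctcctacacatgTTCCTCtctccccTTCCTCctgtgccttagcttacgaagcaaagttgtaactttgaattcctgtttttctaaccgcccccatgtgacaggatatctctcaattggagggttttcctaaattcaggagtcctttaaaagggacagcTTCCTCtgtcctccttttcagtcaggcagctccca
Cd163: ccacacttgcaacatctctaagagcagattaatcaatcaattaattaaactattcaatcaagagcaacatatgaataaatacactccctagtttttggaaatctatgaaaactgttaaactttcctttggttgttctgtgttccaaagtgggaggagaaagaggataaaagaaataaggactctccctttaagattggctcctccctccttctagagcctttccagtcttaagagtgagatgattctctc
The letters GAGGAA occurred on either strand in 14 of the 28 windows of members, 50%, and in 9289 of 32851 promoter windows of all genes, 28.28%. *C1qb* held 1 match that began at position -30 from the start site, *C1qc* held 1 at -193, *Mrc1* held 3 at -180, -167 and -35, and *Cd163* held 0. The overlapping string AGGAAG was in 20 windows of members, against 35.35% of all windows, and GGAAGT in 12, against 23.77%. GAGGAAGT was in 1, against 3.202%. TATAAA was in 4, against 13.62%. The 5 strings and the 4 promoters were picked after the expression values had been seen, and a match of letters does not show that a factor binds.

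The read pairs assigned to genes numbered 13892352 in the shallowest and 461077969 in the deepest library, and the 34 members took from 0.0866% to 0.203% of them. Levels are given as CPM, read pairs of a gene per 1000000 of a library size scaled by the trimmed mean of M-values. A count of 0 allows 3 counts, which is 0.00674 to 0.188 CPM by library, for counting error only. *Tg*, the follicular cell marker, took 21.4% to 29.3% of a library in WT(ND) and 13.5% to 18.7% in *Glis3*-Pax8Cre(ND), and under LID 19.6% to 26.8% in WT and 7.87% to 13.2% in *Glis3*-Pax8Cre, so that the genotypes did not overlap on either diet. Counts over the whole *Glis3* gene, which still include the exons that were not deleted, ranged on ND from 45.2 to 85.8 CPM in WT and 85.8 to 104.8 CPM in *Glis3*-Pax8Cre, and under LID from 124.7 to 174.3 CPM in WT and 119.5 to 204.04 CPM in *Glis3*-Pax8Cre, so they do not check the genotype. In 1 mouse of each group a list of 11 thymocyte and T cell genes summed to more than 100 CPM. These mice were WT(ND) replicate 1 at 179.3 CPM, *Glis3*-Pax8Cre(ND) replicate 4 at 3075 CPM, WT(LID) replicate 3 at 254.3 CPM and *Glis3*-Pax8Cre(LID) replicate 4 at 379.7 CPM. The other 12 mice were between 4.72 and 46.3 CPM. In whole glands, fewer cells of a type and less RNA per cell cannot be told apart.

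The defining genes of macrophages were present in all 16 glands. Per kilobase of exon, *Lyz2* was the highest of the 34 members in each group, with a mean level of 65.8 CPM per kb in WT(ND) and 144 CPM per kb in *Glis3*-Pax8Cre(ND), and *Gas6* came next, at 48.3 and 89.0 CPM per kb. *C1qa*, *C1qb* and *C3* lay between 31.5 and 76.5 CPM per kb over the groups. *Csf1r* was at 9.30 CPM per kb in WT(ND). *Marco* was lowest in every group, at 0.0215 to 0.0481 CPM per kb. Not all members are made by macrophages alone: *Gas6*, *Axl*, *C3*, *Csf1* and *Il34* are also expressed by stromal, endothelial or epithelial cells, *Lyve1* by lymphatic endothelium, and *Ptprc* and *Laptm5* by lymphocytes.

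**Figure D1:**
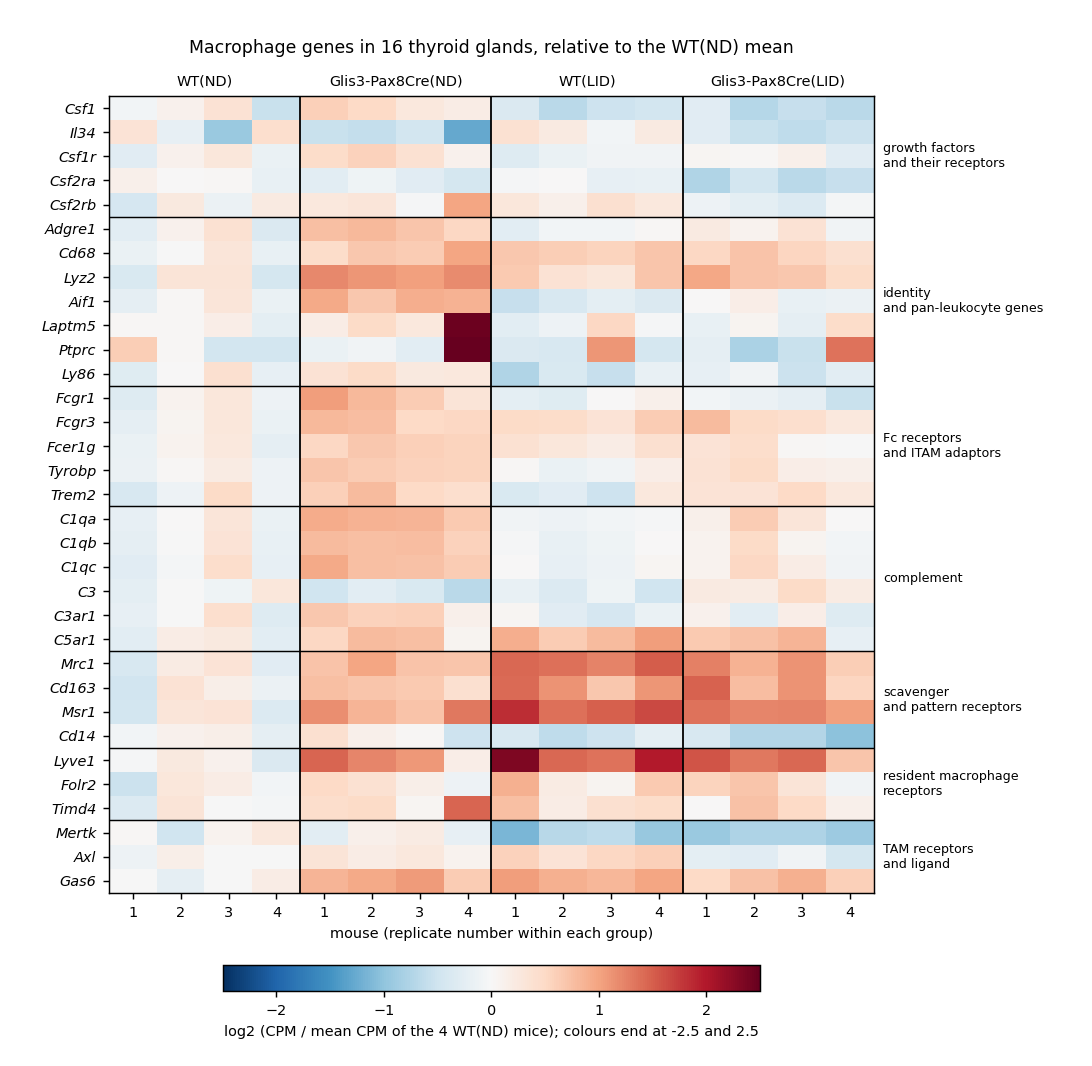
Level of the 33 tested macrophage genes in each of the 16 mice, as log2 of CPM over the mean of the 4 WT(ND) mice, with genes in rows by role and mice in columns by group. Most rows are red in *Glis3*-Pax8Cre(ND), the C1q rows return to near 0 in WT(LID), and *Ptprc* and *Laptm5* are dark only in *Glis3*-Pax8Cre(ND) replicate 4, where they reach 415.4 and 201.7 CPM.

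On the normal diet, macrophage genes were higher in glands with the *Glis3* deletion. Of the 33 tested members, 17 rose in *Glis3*-Pax8Cre(ND) against WT(ND), where 10.3% of all genes tested were called higher, and 1, *C3*, fell, where 9.25% of all were called lower. The 17 were *Csf1r*, *Adgre1*, *Cd68*, *Lyz2*, *Aif1*, *Fcgr1*, *Fcgr3*, *Fcer1g*, *Tyrobp*, *C1qa*, *C1qb*, *C1qc*, *Mrc1*, *Cd163*, *Msr1*, *Lyve1* and *Gas6*. The median log2 fold change over the members was 0.64, against 0.02 over all genes tested, and 29 of 33 were above 0. A call needed an adjusted p under 0.05 in the quasi-likelihood test of edgeR, adjusted over the 16630 genes by the Benjamini-Hochberg method, which is the source of every adjusted p given here. Among the called members *Lyz2*, *Msr1* and *Lyve1* exceeded a 2-fold change, and 2, *Lyz2* and *Msr1*, also had an adjusted p under 0.01. That stricter rule called 2.29% of all genes higher and 1.86% lower, and no member lower. Without the 4 mice over 100 CPM of thymocyte and T cell genes, 18 members were higher. The share of *Tg* was lower in the same 4 mice of *Glis3*-Pax8Cre(ND), and with *Tg* left out of the fit 17 members were higher. That fit removes 1 gene only, and the part of a lower share of follicular cell RNA in these calls was not tested.

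In wild-type glands, members were called in both directions with the low-iodine diet. In WT(LID) against WT(ND), 11 members rose, *Cd68*, *Lyz2*, *Fcgr3*, *Fcer1g*, *C5ar1*, *Mrc1*, *Cd163*, *Msr1*, *Lyve1*, *Axl* and *Gas6*, where 20.9% of all genes were called higher. Another 4 fell, *Csf1*, *Aif1*, *Ly86* and *Mertk*, where 20.8% of all were called lower. Relative to the number tested, 33.33% of members rose and 12.12% fell. The C1q genes, *Csf1r*, *Adgre1* and *Tyrobp* were not called in this comparison. Over the members the median was 0.05, against -0.03 over all genes. Leaving out WT(ND) replicate 2 or 3, or WT(LID) replicate 2, left 1 member called lower, and leaving out WT(LID) replicate 1 or 3 left 2. Without the 4 mice over 100 CPM of thymocyte and T cell genes, 10 rose and 4 fell. The stricter rule called 4 members higher, against 7.68% of all genes, and 0 lower, against 4.8%.

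With the *Glis3* deletion, the low-iodine diet was accompanied by lower levels of 17 macrophage genes. In *Glis3*-Pax8Cre(LID) against *Glis3*-Pax8Cre(ND), 17 members fell, where 12.3% of all genes were called lower, and 1, *C3*, rose, where 13.1% were called higher. Those that fell were *Csf1*, *Csf1r*, *Csf2ra*, *Csf2rb*, *Adgre1*, *Aif1*, *Ly86*, *Fcgr1*, *Fcer1g*, *Tyrobp*, *C1qa*, *C1qb*, *C1qc*, *C3ar1*, *Cd14*, *Mertk* and *Axl*. The median was -0.41 over the members and -0.03 over all genes. This comparison shares the 4 *Glis3*-Pax8Cre(ND) mice with the comparison of genotypes on the normal diet. Parathyroid genes fell in this comparison too, 3 of 3, with sums of 3289 to 5180 CPM in *Glis3*-Pax8Cre(ND) and 225.05 to 2099 CPM in *Glis3*-Pax8Cre(LID), and the part of the tissue taken with the gland was not tested. Without the 4 mice over 100 CPM of thymocyte and T cell genes, 15 members fell. By the stricter rule 0 were higher and 0 lower, against 2.93% and 2.07% of all genes. Same-numbered mice of these 2 groups deviated from their group means together, which does not show that they were pairs. With the number as a block in a fit of these 8 mice, 14 members fell. That fit lost *Csf2ra* (adjusted p = 0.0921), *Csf2rb* (0.0532), *Fcer1g* (0.0691) and *Tyrobp* (0.0704), and gained *Lyz2* (0.0313).

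Under the low-iodine diet, 8 of the 33 tested members differed between genotypes. In *Glis3*-Pax8Cre(LID) against WT(LID), 5 members rose, *Aif1*, *Tyrobp*, *Trem2*, *C1qa* and *C3*, where 14.9% of all genes were called higher, and 3 fell, *Il34*, *Csf2ra* and *Axl*, where 15.4% were called lower. These shares, 15.15% and 9.091% of the members, were near or under those of all genes. The calls of *C3*, *Csf2ra* and *Axl* held in each of 25 alternative settings, whereas *Aif1* was lost in 20 of them, *Tyrobp*, *Trem2* and *C1qa* in 13 each and *Il34* in 7. Without *Glis3*-Pax8Cre(LID) replicate 2 the difference of *C1qa* went from 0.36 to 0.22 (adjusted p = 0.165). Without the 4 mice over 100 CPM of thymocyte and T cell genes, 3 members rose. By the stricter rule 0 were higher and 0 lower, against 2.92% and 5.02% of all genes.

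The difference between these genotype effects was tested as the interaction of genotype and diet, which is the genotype difference under LID minus that on ND. It was called below 0 for 10 members, *Cd68*, *Lyz2*, *Fcgr1*, *Fcgr3*, *Fcer1g*, *Mrc1*, *Msr1*, *Lyve1*, *Axl* and *Gas6*, where 7.41% of all genes were called lower, and above 0 for *C3*, where 4.43% were called higher. The interaction uses the same 16 mice as the comparisons above. Without the 4 mice over 100 CPM of thymocyte and T cell genes, 6 members were called lower. By the stricter rule 1 was higher and 3 lower, against 0.74% and 2.89% of all genes.

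**Figure D2:**
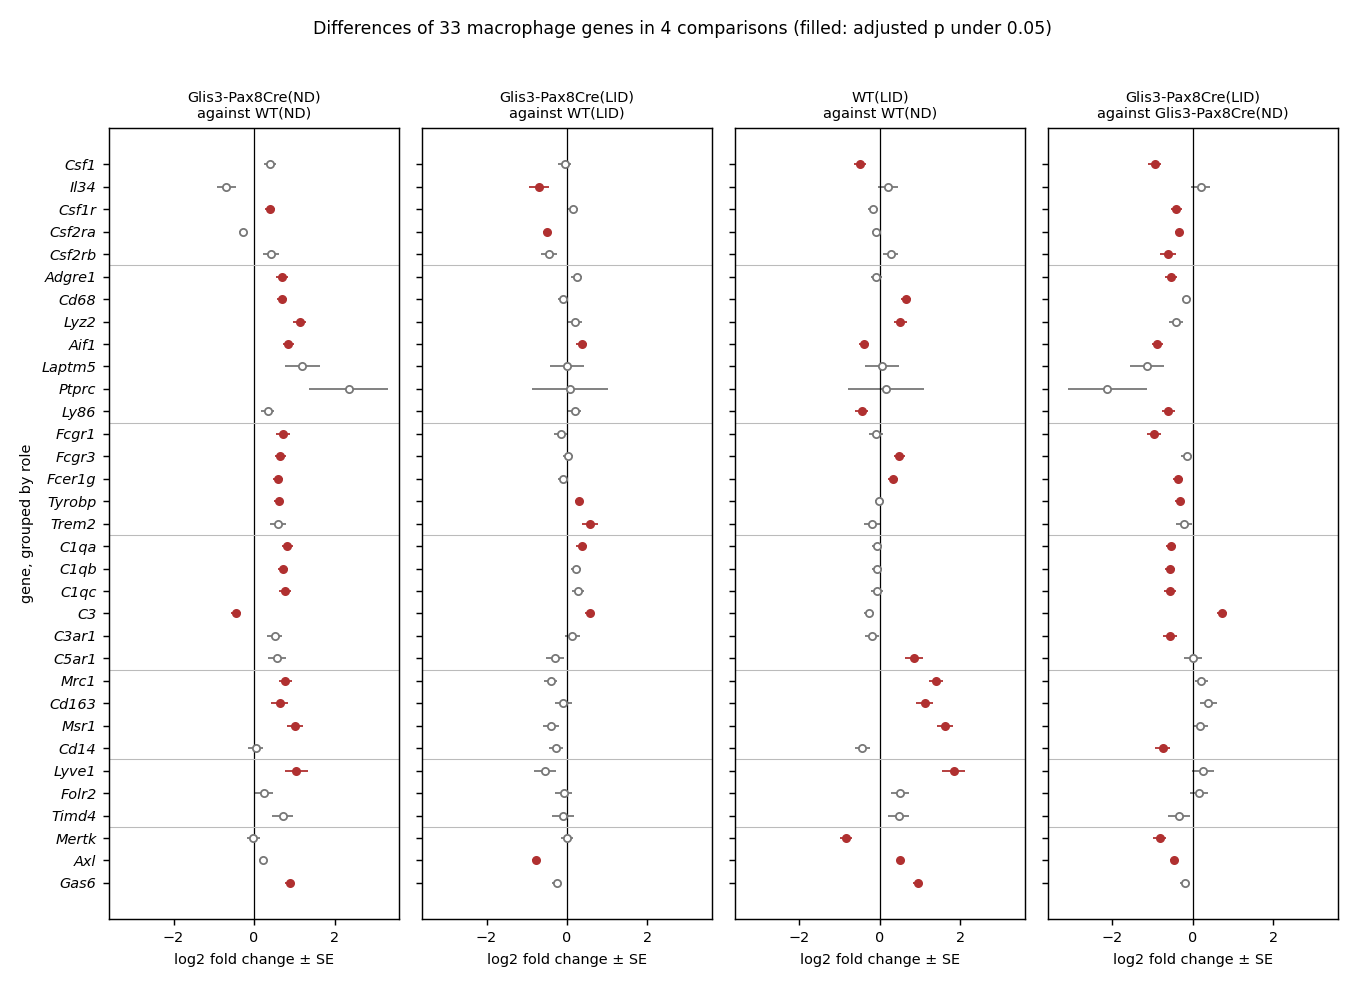
Log2 fold change of the 33 tested members in the 4 comparisons, with bars of 1 standard error (SE). Filled points passed an adjusted p under 0.05, 18 of them in the first panel, 8 in the second, 15 in the third and 18 in the last. *Ptprc* and *Laptm5* have the widest bars.

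The growth factors and receptors come first. *Csf1r*, the receptor on which tissue macrophages depend, was at 44.2, 57.7, 65.1 and 47.7 CPM in the WT(ND) mice, 74.2, 80.1, 70.1 and 57.6 CPM in the *Glis3*-Pax8Cre(ND) mice, 42.8, 47.6, 50.5 and 50.6 CPM in the WT(LID) mice, and 55.4, 54.9, 58.5 and 44.0 CPM in the *Glis3*-Pax8Cre(LID) mice. The groups overlapped in each comparison, with *Glis3*-Pax8Cre(ND) highest by its mean. *Csf1r* was higher in *Glis3*-Pax8Cre(ND) than in WT(ND) (log2 fold change 0.39, SE 0.13, adjusted p = 0.0435), a call lost in 13 of 25 alternative settings, and lower in *Glis3*-Pax8Cre(LID) than in *Glis3*-Pax8Cre(ND) (log2 fold change -0.41, SE 0.13, adjusted p = 0.0313), a call lost in 6 of 26. *Csf1*, its main ligand, was at 35.2, 39.7, 47.1 and 25.1 CPM in the WT(ND) mice, 55.6, 51.9, 44.5 and 41.7 CPM in the *Glis3*-Pax8Cre(ND) mice, 28.8, 23.0, 25.7 and 26.9 CPM in the WT(LID) mice, and 30.1, 22.4, 24.6 and 23.1 CPM in the *Glis3*-Pax8Cre(LID) mice. All 4 mice of *Glis3*-Pax8Cre(LID) lay below all 4 of *Glis3*-Pax8Cre(ND), while WT groups overlapped. With LID *Csf1* fell in both genotypes, with log2 differences of -0.49, SE 0.16, adjusted p = 0.0208 in WT, and -0.95, SE 0.16, adjusted p = 0.000622 in *Glis3*-Pax8Cre. *Il34*, the gene of the other ligand of CSF1R, was at 36.3, 24.9, 14.99 and 38.4 CPM in the WT(ND) mice, 19.4, 19.1, 20.97 and 11.8 CPM in the *Glis3*-Pax8Cre(ND) mice, 37.1, 33.6, 27.4 and 33.7 CPM in the WT(LID) mice, and 23.5, 19.5, 18.6 and 19.6 CPM in the *Glis3*-Pax8Cre(LID) mice. Under LID all 4 *Glis3*-Pax8Cre mice lay below all 4 WT mice (log2 fold change -0.70, SE 0.24, adjusted p = 0.0388), and on ND the groups overlapped (log2 fold change -0.69, SE 0.24, adjusted p = 0.057).

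*Csf2ra* and *Csf2rb* encode the alpha chain and the common beta chain of the GM-CSF receptor. *Csf2ra* was at 19.6, 18.1, 18.5 and 15.97 CPM in the WT(ND) mice, 14.99, 16.7, 14.9 and 13.3 CPM in the *Glis3*-Pax8Cre(ND) mice, 17.8, 18.1, 15.8 and 15.8 CPM in the WT(LID) mice, and 10.7, 13.2, 11.3 and 12.1 CPM in the *Glis3*-Pax8Cre(LID) mice. The 4 *Glis3*-Pax8Cre(LID) mice were the lowest of the 16, below WT(LID) (log2 fold change -0.51, SE 0.096, adjusted p = 0.000876) and below *Glis3*-Pax8Cre(ND) (log2 fold change -0.34, SE 0.097, adjusted p = 0.0182). *Csf2rb* was at 3.81, 6.06, 4.61 and 5.99 CPM in the WT(ND) mice, 6.15, 6.28, 4.99 and 10.1 CPM in the *Glis3*-Pax8Cre(ND) mice, 6.22, 5.55, 6.72 and 6.12 CPM in the WT(LID) mice, and 4.66, 4.33, 4.03 and 4.96 CPM in the *Glis3*-Pax8Cre(LID) mice. *Glis3*-Pax8Cre(ND) replicate 4, which held the most thymocyte and T cell RNA, was the highest mouse, and no mouse of *Glis3*-Pax8Cre(LID) reached that group. The fall from *Glis3*-Pax8Cre(ND) to *Glis3*-Pax8Cre(LID) was called (log2 fold change -0.62, SE 0.20, adjusted p = 0.0314). It was -0.38 without *Glis3*-Pax8Cre(ND) replicate 4 (adjusted p = 0.0929), and the call was lost in 7 of 26 alternative settings. *Csf2rb* shares sequence with *Csf2rb2*, so the split of reads between these genes is uncertain.

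Of the identity genes, *Adgre1*, which encodes the F4/80 antigen, was at 14.6, 18.8, 22.8 and 13.5 CPM in the WT(ND) mice, 29.4, 30.4, 28.2 and 25.0 CPM in the *Glis3*-Pax8Cre(ND) mice, 14.6, 16.6, 16.7 and 17.8 CPM in the WT(LID) mice, and 20.3, 18.6, 22.4 and 16.3 CPM in the *Glis3*-Pax8Cre(LID) mice. The 4 *Glis3*-Pax8Cre(ND) mice stood above all others. It was higher there than in WT(ND) (log2 fold change 0.70, SE 0.15, adjusted p = 0.00388) and fell under LID in that genotype (log2 fold change -0.54, SE 0.15, adjusted p = 0.013), whereas in WT the diet difference was -0.085, SE 0.14, adjusted p = 0.675. *Aif1*, the gene of the cytoskeletal protein IBA1, was at 4.40, 5.30, 6.36 and 4.64 CPM in the WT(ND) mice, 9.91, 8.30, 9.72 and 9.46 CPM in the *Glis3*-Pax8Cre(ND) mice, 3.45, 3.90, 4.37 and 4.03 CPM in the WT(LID) mice, and 5.18, 5.82, 4.58 and 4.69 CPM in the *Glis3*-Pax8Cre(LID) mice. It was also highest in the 4 *Glis3*-Pax8Cre(ND) mice and lowest in WT(LID), with no overlap between groups in any of the 4 comparisons. *Aif1* rose with the deletion on ND (log2 fold change 0.85, SE 0.13, adjusted p = 0.000557) and fell under LID in both WT (log2 fold change -0.39, SE 0.13, adjusted p = 0.026) and *Glis3*-Pax8Cre (log2 fold change -0.88, SE 0.13, adjusted p = 0.000268). Under LID the call for the deletion stood at the threshold (log2 fold change 0.36, SE 0.13, adjusted p = 0.0487).

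*Lyz2*, the lysozyme of myeloid cells, was at 66.1, 109, 108 and 63.8 CPM in the WT(ND) mice, 200.1, 186, 176 and 196 CPM in the *Glis3*-Pax8Cre(ND) mice, 136, 111, 106 and 140.4 CPM in the WT(LID) mice, and 168, 141, 138 and 121 CPM in the *Glis3*-Pax8Cre(LID) mice. All 4 *Glis3*-Pax8Cre(ND) mice were above every other mouse, and WT(ND) and WT(LID) overlapped. The genotype difference on ND was among the widest of the members (log2 fold change 1.13, SE 0.17, adjusted p = 0.000446), the diet difference in WT was 0.51, SE 0.17, adjusted p = 0.0244, and the interaction was -0.92, SE 0.24, adjusted p = 0.0196. Reads of *Lyz2* and its near-identical neighbour *Lyz1* may have been split between both genes. *Cd68*, a glycoprotein of macrophage endosomes, was at 7.81, 8.64, 10.8 and 7.73 CPM in the WT(ND) mice, 12.0, 13.96, 13.5 and 17.2 CPM in the *Glis3*-Pax8Cre(ND) mice, 13.9, 13.4, 12.9 and 14.2 CPM in the WT(LID) mice, and 12.5, 14.3, 12.6 and 11.53 CPM in the *Glis3*-Pax8Cre(LID) mice. The 4 WT(ND) mice were the lowest of all 16, and the other 3 groups overlapped. *Cd68* rose with the deletion on ND (log2 fold change 0.70, SE 0.12, adjusted p = 0.00142) and with LID in WT (log2 fold change 0.64, SE 0.12, adjusted p = 0.000768), and its interaction was -0.80, SE 0.18, adjusted p = 0.00802.

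*Ly86*, which encodes the MD-1 partner of a Toll-like receptor homologue, was at 6.38, 7.95, 10.4 and 6.83 CPM in the WT(ND) mice, 10.2, 10.9, 9.30 and 9.44 CPM in the *Glis3*-Pax8Cre(ND) mice, 4.67, 6.07, 5.32 and 6.90 CPM in the WT(LID) mice, and 6.80, 7.37, 5.46 and 6.54 CPM in the *Glis3*-Pax8Cre(LID) mice. LID was accompanied by lower levels in WT, with overlap (log2 fold change -0.46, SE 0.16, adjusted p = 0.0296), and in *Glis3*-Pax8Cre, without overlap (log2 fold change -0.61, SE 0.16, adjusted p = 0.0116). The WT call was lost in 6 of 25 alternative settings, and without WT(ND) replicate 3 the difference was -0.29 (adjusted p = 0.134). *Ptprc*, the CD45 antigen of all leukocytes, was at 35.9, 23.9, 17.1 and 17.2 CPM in the WT(ND) mice, 20.8, 22.2, 19.7 and 415 CPM in the *Glis3*-Pax8Cre(ND) mice, 18.3, 17.8, 50.8 and 17.3 CPM in the WT(LID) mice, and 20.05, 13.5, 15.95 and 60.2 CPM in the *Glis3*-Pax8Cre(LID) mice. The mouse *Glis3*-Pax8Cre(ND) replicate 4 was far above the other 15, and the 4 mice with over 100 CPM of thymocyte and T cell genes were the 4 highest. *Laptm5*, a lysosomal protein of leukocytes, was at 37.7, 37.7, 41.7 and 31.4 CPM in the WT(ND) mice, 42.5, 51.8, 44.7 and 202 CPM in the *Glis3*-Pax8Cre(ND) mice, 30.9, 33.8, 52.8 and 36.1 CPM in the WT(LID) mice, and 32.7, 38.8, 31.9 and 50.7 CPM in the *Glis3*-Pax8Cre(LID) mice. The same mouse was the highest. Neither gene was called in any comparison, with *Ptprc* at 2.35 (adjusted p = 0.112) and *Laptm5* at 1.20 (adjusted p = 0.0625) on the log2 scale between genotypes on ND. Without that mouse these values were -0.16 and 0.33.

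**Figure D3:**
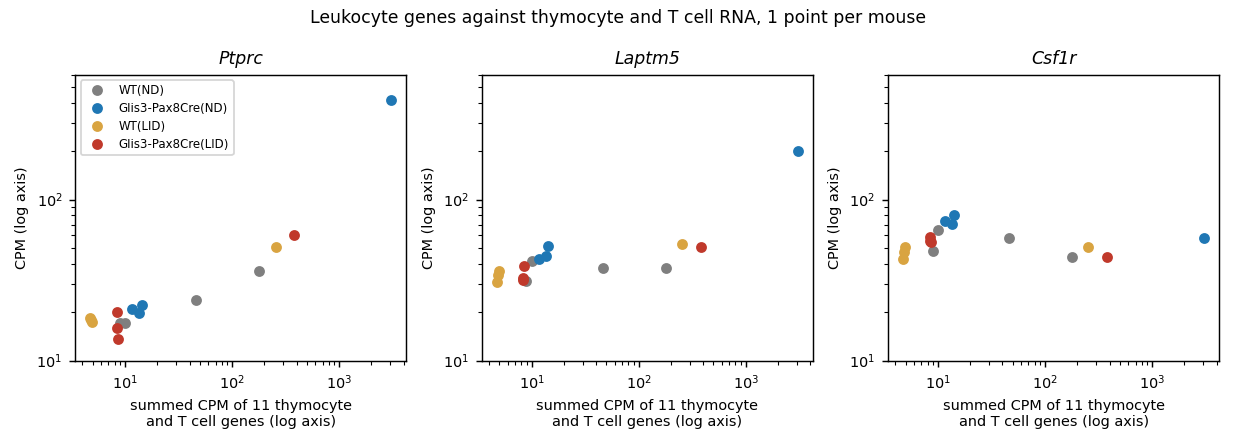
*Ptprc*, *Laptm5* and *Csf1r* in CPM (vertical, log axis) against the summed CPM of 11 thymocyte and T cell genes (horizontal, log axis), with 1 point for each of the 16 mice coloured by group. *Ptprc* is highest, 415.4 CPM, in the mouse with 3075 CPM of thymocyte and T cell genes, and *Csf1r* is at 57.6 CPM there, within the range of the other mice.

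Most Fc receptors and their adaptors were higher with the deletion on ND, where 4 of 5 rose, against 10.3% of all genes. *Fcer1g*, the signalling gamma chain shared by Fc receptors, was at 9.26, 11, 12.4 and 8.88 CPM in the WT(ND) mice, 14.8, 16.7, 15.74 and 15.3 CPM in the *Glis3*-Pax8Cre(ND) mice, 13.5, 12.7, 11.8 and 13.8 CPM in the WT(LID) mice, and 13.2, 14.1, 10.7 and 10.3 CPM in the *Glis3*-Pax8Cre(LID) mice. The *Glis3*-Pax8Cre(ND) mice lay above both WT(ND) and *Glis3*-Pax8Cre(LID), while WT(ND) and WT(LID) overlapped. It rose with the deletion on ND (log2 fold change 0.59, SE 0.12, adjusted p = 0.00379), and its interaction was -0.69, SE 0.17, adjusted p = 0.0164. The diet comparisons were called near the threshold, at 0.32 (adjusted p = 0.0481) in WT and -0.37 (adjusted p = 0.0354) in *Glis3*-Pax8Cre. *Tyrobp*, the ITAM adaptor DAP12, was at 11.4, 13.03, 14.7 and 11.7 CPM in the WT(ND) mice, 20.5, 19.8, 18.9 and 18.6 CPM in the *Glis3*-Pax8Cre(ND) mice, 12.97, 11.3, 11.9 and 14.2 CPM in the WT(LID) mice, and 16.2, 17.7, 14.2 and 13.9 CPM in the *Glis3*-Pax8Cre(LID) mice. *Glis3*-Pax8Cre(ND) stood above WT(ND) and *Glis3*-Pax8Cre(LID) without overlap. The genotype difference was called on ND (log2 fold change 0.61, SE 0.11, adjusted p = 0.00119) and, less firmly, under LID (log2 fold change 0.30, SE 0.11, adjusted p = 0.0417), and *Tyrobp* fell with LID in *Glis3*-Pax8Cre (log2 fold change -0.32, SE 0.11, adjusted p = 0.0348).

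*Fcgr1*, the high-affinity IgG receptor, was at 2.99, 3.98, 4.51 and 3.396 CPM in the WT(ND) mice, 7.65, 6.55, 5.73 and 4.67 CPM in the *Glis3*-Pax8Cre(ND) mice, 3.15, 3.01, 3.72 and 4.06 CPM in the WT(LID) mice, and 3.55, 3.35, 3.18 and 2.51 CPM in the *Glis3*-Pax8Cre(LID) mice. The 4 *Glis3*-Pax8Cre(ND) mice were above WT(ND) and above *Glis3*-Pax8Cre(LID). It rose with the deletion on ND (log2 fold change 0.72, SE 0.18, adjusted p = 0.0107) and fell with LID in that genotype (log2 fold change -0.96, SE 0.18, adjusted p = 0.00134). *Fcgr3*, a low-affinity IgG receptor that shares sequence with other Fc receptor genes, was at 8.11, 9.92, 11.6 and 8.43 CPM in the WT(ND) mice, 16.6, 16.3, 13.4 and 13.6 CPM in the *Glis3*-Pax8Cre(ND) mice, 13.2, 13.1, 12.1 and 14.7 CPM in the WT(LID) mice, and 16.5, 13.3, 12.8 and 11.4 CPM in the *Glis3*-Pax8Cre(LID) mice. WT(ND) lay below *Glis3*-Pax8Cre(ND) and WT(LID). The rise was called for the deletion on ND (log2 fold change 0.65, SE 0.14, adjusted p = 0.00378) and for LID in WT (log2 fold change 0.48, SE 0.14, adjusted p = 0.00941). *Trem2*, a lipid-sensing receptor that signals through TYROBP, was at 1.81, 2.19, 3.32 and 2.17 CPM in the WT(ND) mice, 3.58, 4.09, 3.35 and 3.18 CPM in the *Glis3*-Pax8Cre(ND) mice, 1.81, 1.95, 1.65 and 2.83 CPM in the WT(LID) mice, and 3.01, 3.03, 3.33 and 2.86 CPM in the *Glis3*-Pax8Cre(LID) mice. Over a union of exons of 4.946 kb *Trem2* had the lowest level per kb of the role, a rank that depends on that length. All 4 *Glis3*-Pax8Cre(LID) mice were above all 4 WT(LID) mice (log2 fold change 0.57, SE 0.20, adjusted p = 0.0413). On ND the difference was of like size and missed the threshold (log2 fold change 0.58, SE 0.20, adjusted p = 0.0502).

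The 3 chains of C1q, the recognition protein of the classical complement pathway, lie next to each other on chromosome 4, with *C1qa* at chr4:136895916-136898844 on mm10. *C1qa* was at 38.9, 45.2, 55.3 and 39.6 CPM in the WT(ND) mice, 85.5, 81.6, 80.4 and 70.5 CPM in the *Glis3*-Pax8Cre(ND) mice, 42.4, 41.1, 42.9 and 43.6 CPM in the WT(LID) mice, and 48.9, 69.5, 54.98 and 44.8 CPM in the *Glis3*-Pax8Cre(LID) mice. All 4 *Glis3*-Pax8Cre(ND) mice were above all 12 others, and WT(ND) and WT(LID) overlapped. It rose with the deletion on ND (log2 fold change 0.83, SE 0.13, adjusted p = 0.000568), fell with LID in *Glis3*-Pax8Cre (log2 fold change -0.54, SE 0.13, adjusted p = 0.00665), and differed by -0.075, SE 0.13, adjusted p = 0.676 with LID in WT. *C1qb* was at 41.2, 47.6, 60.6 and 41.9 CPM in the WT(ND) mice, 83.1, 80.1, 82.1 and 71.1 CPM in the *Glis3*-Pax8Cre(ND) mice, 46.8, 42.3, 44.3 and 48.1 CPM in the WT(LID) mice, and 50.9, 66.5, 50.3 and 45.5 CPM in the *Glis3*-Pax8Cre(LID) mice. *C1qc* was at 31.6, 37.2, 52.0 and 33.3 CPM in the WT(ND) mice, 74.3, 64.9, 64.1 and 60.1 CPM in the *Glis3*-Pax8Cre(ND) mice, 38.9, 33.5, 35.4 and 39.8 CPM in the WT(LID) mice, and 41.2, 55.4, 44.1 and 36.4 CPM in the *Glis3*-Pax8Cre(LID) mice. Both repeated the order of *C1qa*, with log2 differences of 0.73, SE 0.13, adjusted p = 0.00126, and of 0.77, SE 0.15, adjusted p = 0.00238, between genotypes on ND. With LID in *Glis3*-Pax8Cre both fell, with log2 differences of -0.57, SE 0.13, adjusted p = 0.00443 for *C1qb*, and -0.57, SE 0.15, adjusted p = 0.0113 for *C1qc*.

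*C3*, the gene of the central complement component, was at 188, 221, 206 and 269.8 CPM in the WT(ND) mice, 157, 184, 169 and 139 CPM in the *Glis3*-Pax8Cre(ND) mice, 195, 173, 205 and 158 CPM in the WT(LID) mice, and 258, 257, 309.6 and 256 CPM in the *Glis3*-Pax8Cre(LID) mice. *Glis3*-Pax8Cre(ND) mice were below all WT(ND) mice, and *Glis3*-Pax8Cre(LID) mice were above all mice of *Glis3*-Pax8Cre(ND) and of WT(LID). It was lower with the deletion on ND (log2 fold change -0.45, SE 0.12, adjusted p = 0.0187), higher with the deletion under LID (log2 fold change 0.56, SE 0.12, adjusted p = 0.0026), and its interaction was 1.01, SE 0.17, adjusted p = 0.00139. The ND call was lost without WT(ND) replicate 4 (adjusted p = 0.0778), without *Glis3*-Pax8Cre(ND) replicate 4 (adjusted p = 0.0509) and in the 8 mice alone (adjusted p = 0.0698). *C3ar1*, the receptor of the C3a fragment, was at 6.10, 7.03, 9.44 and 5.61 CPM in the WT(ND) mice, 11.3, 10.4, 10.7 and 7.74 CPM in the *Glis3*-Pax8Cre(ND) mice, 7.29, 5.75, 5.28 and 6.28 CPM in the WT(LID) mice, and 7.57, 5.91, 7.93 and 5.62 CPM in the *Glis3*-Pax8Cre(LID) mice. Groups overlapped, and 1 comparison was called, the fall with LID in *Glis3*-Pax8Cre (log2 fold change -0.57, SE 0.18, adjusted p = 0.0291). *C5ar1*, the receptor of C5a, was at 2.16, 2.95, 3.08 and 2.17 CPM in the WT(ND) mice, 3.70, 4.47, 4.36 and 2.73 CPM in the *Glis3*-Pax8Cre(ND) mice, 4.86, 4.003, 4.48 and 5.35 CPM in the WT(LID) mice, and 4.06, 4.33, 4.65 and 2.25 CPM in the *Glis3*-Pax8Cre(LID) mice. The 4 WT(LID) mice were above the 4 WT(ND) mice (log2 fold change 0.85, SE 0.22, adjusted p = 0.006), and the deletion on ND gave 0.56, SE 0.22, adjusted p = 0.0871.

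**Figure D4:**
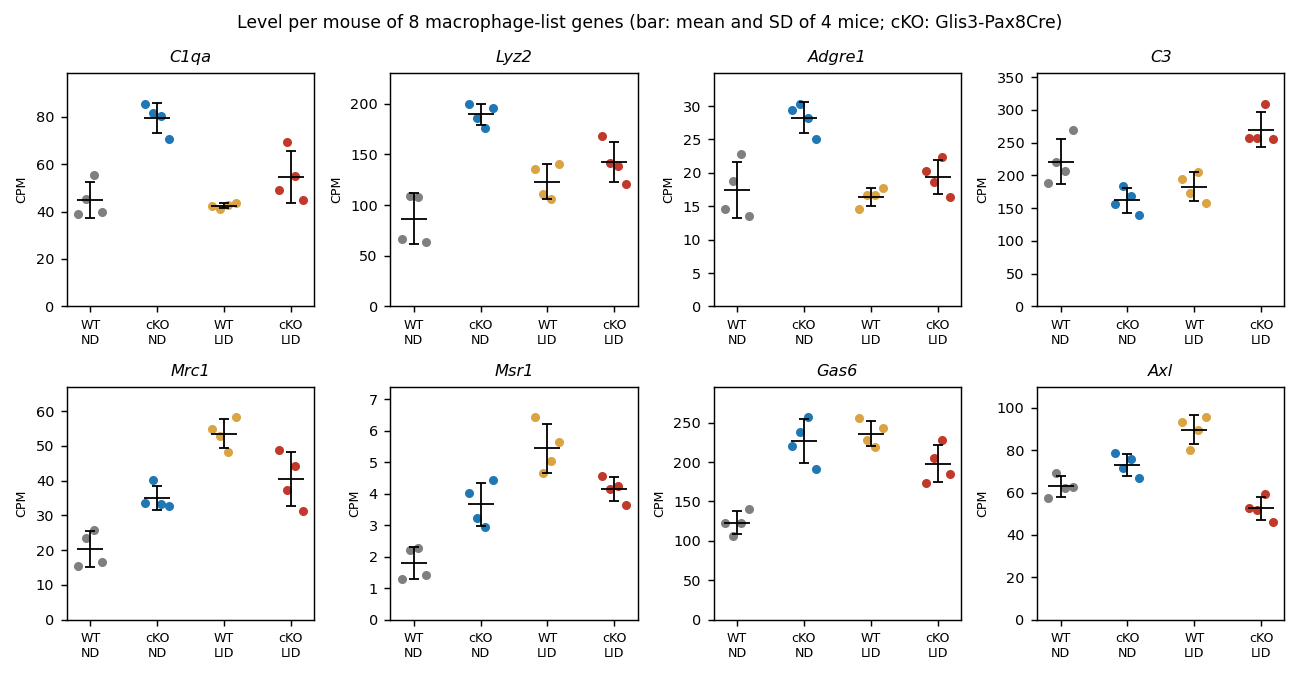
Level in CPM (vertical, from 0) of 8 members in each mouse, by group, with the mean and SD of 4 mice in black and cKO for *Glis3*-Pax8Cre. *C1qa* and *Adgre1* are highest in *Glis3*-Pax8Cre(ND), *Mrc1*, *Msr1* and *Axl* are highest in WT(LID), and *C3* is highest in *Glis3*-Pax8Cre(LID), with means of 79.5, 28.3, 53.6, 5.45, 89.7 and 269.8 CPM in those groups.

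Of 4 tested scavenger and pattern receptors, 3 rose with LID in wild type, against 20.9% of all genes. *Mrc1*, the mannose receptor CD206, was at 15.4, 23.6, 25.8 and 16.7 CPM in the WT(ND) mice, 33.6, 40.2, 33.2 and 32.8 CPM in the *Glis3*-Pax8Cre(ND) mice, 54.8, 52.8, 48.3 and 58.4 CPM in the WT(LID) mice, and 48.9, 37.4, 44.3 and 31.4 CPM in the *Glis3*-Pax8Cre(LID) mice. WT(ND) mice were the lowest, and the 4 WT(LID) mice were above every *Glis3*-Pax8Cre(ND) mouse. It rose with LID in WT (log2 fold change 1.40, SE 0.16, adjusted p = 9.21e-06) and with the deletion on ND (log2 fold change 0.78, SE 0.16, adjusted p = 0.00379), and the interaction was -1.18, SE 0.23, adjusted p = 0.00323. Within *Glis3*-Pax8Cre, LID gave 0.21, SE 0.16, adjusted p = 0.354. *Cd163*, the haptoglobin-haemoglobin receptor, was at 9.19, 16.5, 14.3 and 11.6 CPM in the WT(ND) mice, 21.8, 20.9, 20.4 and 17.1 CPM in the *Glis3*-Pax8Cre(ND) mice, 34.5, 28.2, 20.7 and 27.9 CPM in the WT(LID) mice, and 35.9, 22.0, 28.0 and 18.7 CPM in the *Glis3*-Pax8Cre(LID) mice. WT(ND) mice again lay below the other groups. It rose with LID in WT (log2 fold change 1.11, SE 0.21, adjusted p = 0.00065) and, with a call lost in 11 of 25 alternative settings, with the deletion on ND (log2 fold change 0.64, SE 0.21, adjusted p = 0.0449).

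*Msr1*, the class A scavenger receptor, was at 1.30, 2.20, 2.26 and 1.41 CPM in the WT(ND) mice, 4.02, 3.24, 2.94 and 4.44 CPM in the *Glis3*-Pax8Cre(ND) mice, 6.44, 4.65, 5.05 and 5.65 CPM in the WT(LID) mice, and 4.57, 4.17, 4.23 and 3.66 CPM in the *Glis3*-Pax8Cre(LID) mice. No mouse of WT(ND) reached any mouse of another group. The difference was 1.61, SE 0.20, adjusted p = 1.6e-05 with LID in WT and 1.03, SE 0.20, adjusted p = 0.00236 with the deletion on ND, with an interaction of -1.42, SE 0.28, adjusted p = 0.00362. *Cd14*, the lipopolysaccharide co-receptor, was at 5.33, 6.04, 6.13 and 4.79 CPM in the WT(ND) mice, 7.40, 6.06, 5.66 and 3.91 CPM in the *Glis3*-Pax8Cre(ND) mice, 4.25, 3.59, 3.90 and 4.69 CPM in the WT(LID) mice, and 4.21, 3.34, 3.35 and 2.72 CPM in the *Glis3*-Pax8Cre(LID) mice. It did not share this pattern, and fell with LID in *Glis3*-Pax8Cre (log2 fold change -0.75, SE 0.18, adjusted p = 0.00763), with overlap. *Marco* ranged from 0.00 to 0.25 CPM over the 16 mice and was too low to test.

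*Lyve1*, a hyaluronan receptor of perivascular macrophages and of lymphatic endothelium, was at 8.77, 10.6, 9.62 and 6.95 CPM in the WT(ND) mice, 24.6, 20.99, 19 and 10.04 CPM in the *Glis3*-Pax8Cre(ND) mice, 45.1, 24.4, 23.1 and 35.5 CPM in the WT(LID) mice, and 26.7, 22.5, 24.2 and 14.5 CPM in the *Glis3*-Pax8Cre(LID) mice. All WT(LID) mice were above all WT(ND) mice, and *Glis3*-Pax8Cre(ND) overlapped with WT(ND) through its replicate 4. It rose with LID in WT (log2 fold change 1.84, SE 0.28, adjusted p = 0.000124) and with the deletion on ND (log2 fold change 1.05, SE 0.28, adjusted p = 0.0164), a call lost without WT(ND) replicate 4 (adjusted p = 0.0556), and the interaction was -1.59, SE 0.39, adjusted p = 0.0151. *Folr2*, a folate receptor of resident macrophages, ranged from 4.82 to 12.9 CPM, and *Timd4*, which binds phosphatidylserine, from 1.09 to 3.82 CPM over the 16 mice. Neither was called in any comparison.

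The TAM family members behaved differently from each other. *Mertk*, the receptor tyrosine kinase of macrophages that take up apoptotic cells, was at 18.2, 12.5, 18.8 and 21.4 CPM in the WT(ND) mice, 14.8, 19.5, 20.4 and 15.3 CPM in the *Glis3*-Pax8Cre(ND) mice, 8.07, 10.9, 11.47 and 9.19 CPM in the WT(LID) mice, and 9.36, 10.4, 10.4 and 9.46 CPM in the *Glis3*-Pax8Cre(LID) mice. The 8 LID mice were below the 8 ND mice. It fell with LID in both genotypes, with log2 differences of -0.84, SE 0.16, adjusted p = 0.000593 in WT, and -0.83, SE 0.16, adjusted p = 0.00165 in *Glis3*-Pax8Cre, and its genotype differences were -0.016 on ND (adjusted p = 0.957) and -0.0022 under LID (adjusted p = 0.994). *Axl*, a related receptor also found on endothelial and stromal cells, was at 57.6, 69.3, 62.1 and 62.8 CPM in the WT(ND) mice, 78.7, 71.5, 75.9 and 66.9 CPM in the *Glis3*-Pax8Cre(ND) mice, 93.4, 80.1, 89.8 and 95.8 CPM in the WT(LID) mice, and 52.9, 51.7, 59.6 and 46.2 CPM in the *Glis3*-Pax8Cre(LID) mice. WT(LID) mice were the highest and *Glis3*-Pax8Cre(LID) mice lay below *Glis3*-Pax8Cre(ND) and WT(LID). *Axl* rose with LID in WT (log2 fold change 0.51, SE 0.088, adjusted p = 0.000288) and fell with LID in *Glis3*-Pax8Cre (log2 fold change -0.48, SE 0.088, adjusted p = 0.00128), with an interaction of -0.99, SE 0.12, adjusted p = 0.000118. *Gas6*, their common ligand, was at 123, 106, 123 and 141 CPM in the WT(ND) mice, 221, 239, 257 and 191 CPM in the *Glis3*-Pax8Cre(ND) mice, 256, 227, 219 and 243 CPM in the WT(LID) mice, and 174, 205, 228 and 185 CPM in the *Glis3*-Pax8Cre(LID) mice. WT(ND) mice were the lowest of the 16, and the other 3 groups overlapped. It rose with the deletion on ND (log2 fold change 0.88, SE 0.11, adjusted p = 0.000129) and with LID in WT (log2 fold change 0.94, SE 0.11, adjusted p = 1.1e-05), and its interaction was -1.14, SE 0.16, adjusted p = 0.000253.

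Markers of vessels were read because *Lyve1*, *Gas6* and *Axl* are also expressed by vessel cells. The summed level of 5 endothelial genes was 431 to 503 CPM in WT and 512 to 721 CPM in *Glis3*-Pax8Cre on ND, and 1136 to 1283 and 478 to 628 CPM under LID. All 5 rose with LID in WT, and all 5 fell in *Glis3*-Pax8Cre(LID) against WT(LID), among them *Pecam1* (log2 fold change 1.58, SE 0.13, adjusted p = 2.05e-07 and log2 fold change -1.57, SE 0.13, adjusted p = 3.24e-07). On ND 1 of 5 rose with the deletion. *Lyve1* and *Gas6*, which rose on ND, were not called between genotypes under LID, at -0.54 (adjusted p = 0.152) and -0.25 (adjusted p = 0.0982). *Axl*, not called on ND (adjusted p = 0.0952), was lower with the deletion under LID (log2 fold change -0.77, SE 0.089, adjusted p = 1.18e-05). In the interaction all 5 endothelial genes were called lower, as were *Lyve1*, *Gas6* and *Axl*, where 7.41% of all genes were. Pericyte genes summed to 332 to 486, 491 to 664, 764 to 1166 and 449 to 639 CPM in the same order of groups. Of these 5, 4 were higher with LID in WT and 3 were lower with the deletion under LID. Lymphatic endothelial genes summed to 31.1 to 35.0, 34.9 to 61.0, 72.0 to 83.6 and 35.2 to 53.6 CPM, with *Ccl21a* at 0 in all mice. Of the 3 that were tested, 2 were higher with the deletion on ND, 1 was higher with LID in WT, and 1 was lower with the deletion under LID. Fibroblast genes summed to 536 to 742, 248.8 to 507, 1062 to 1240.5 and 366 to 659 CPM. The part of these cells in the results for *Lyve1*, *Gas6* and *Axl* was not tested. Of all genes tested, 10.3% were called higher and 9.25% lower with the deletion on ND. These shares were 14.9% and 15.4% with the deletion under LID, and 20.9% and 20.8% with LID in WT.

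Markers of other blood cells were read in the same way. Of the 11 thymocyte and T cell genes, *Rag1*, *Rag2*, *Ptcra* and *Dntt* were at 0 in at least 1 mouse, and 0 of 11 were called in any comparison by edgeR or by DESeq2. With no adjustment, edgeR gave a p under 0.05 for 1 of the 11 between genotypes on ND and for 0 elsewhere. Their sums ranged over 8.94 to 179 CPM in WT and 11.7 to 3075 CPM in *Glis3*-Pax8Cre on ND, and over 4.72 to 254 and 8.34 to 379.7 CPM under LID. Monocyte genes summed to 19.4 to 35.4, 21.6 to 27.7, 22.2 to 33.3 and 15.6 to 28.4 CPM, and the groups overlapped. Dendritic cell genes summed to 29.1 to 33.2, 26.9 to 32.5, 26.2 to 30.5 and 22.4 to 26.5 CPM. Plasma cell genes summed to 34.2 to 63.6, 12.4 to 34.8, 15.66 to 30.6 and 5.54 to 14.5 CPM and mast cell genes to 3.70 to 6.80, 2.91 to 6.89, 7.89 to 11.6 and 8.79 to 18.1 CPM. Neutrophil genes were at most 3.78 CPM in sum, and B cell genes at most 13.6 CPM. Of 4 tested mast cell genes, 3 rose with LID in WT and 4 in *Glis3*-Pax8Cre, where 20.9% and 13.1% of all genes did. Of 3 tested neutrophil genes, 1 rose with the deletion on ND and 2 under LID, where 10.3% and 14.9% of all did. With LID in WT 1 neutrophil gene fell, where 20.8% of all did. The part of these cells in the results was not tested.

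Markers of thyroid cells and of neighbouring tissue also differed between groups. The follicular cell genes, most of whose sum is *Tg*, summed to 203382 to 306923, 125702 to 185817, 218193 to 329272 and 97858 to 164745 CPM in the same order of groups. With the deletion 2 of 7 rose and 1, *Tg*, fell on ND, and 4 of 7 rose and 1 fell under LID. Parathyroid genes summed to 3477 to 6005 CPM in WT(ND) and 858 to 1676 CPM in WT(LID), and 3 of 3 fell with LID in each genotype. C cell genes summed to 2444 to 3911, 1034 to 2224, 1167 to 1631 and 1032 to 1811 CPM, with 2 of 3 lower with the deletion on ND and 2 of 3 lower with LID in WT. Adipocyte genes summed to 324 to 835, 159 to 352, 138 to 215 and 146 to 343 CPM, with 2 of 5 lower with the deletion on ND and 4 of 5 lower with LID in WT. Skeletal muscle genes reached 1251 CPM in 1 mouse of *Glis3*-Pax8Cre(ND) and were under 3 CPM in the lowest mouse of each group, cartilage genes summed to at most 38.5 CPM and erythroid genes to at most 67.6 CPM. The part of these tissues in the results was not tested. Among all genes tested, 10.3% were called higher and 9.25% lower with the deletion on ND, and 14.9% and 15.4% with the deletion under LID. With LID, the shares were 20.9% and 20.8% in WT and 13.1% and 12.3% in *Glis3*-Pax8Cre.

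The balance between some members differed by diet. Read-pair counts of *Mrc1* over those of *C1qa* in the same mouse were 0.452 ± 0.0554 (SD, n = 4) in WT and 0.441 ± 0.0458 in *Glis3*-Pax8Cre on ND, and 1.26 ± 0.0919 and 0.761 ± 0.194 under LID. On ND the genotypes overlapped in this ratio, and every LID mouse was above every ND mouse. *Cd163* over *C1qa* went from 0.288 ± 0.0563 and 0.252 ± 0.00626 on ND to 0.656 ± 0.137 and 0.494 ± 0.179 under LID, in WT and *Glis3*-Pax8Cre respectively. *Msr1* over *C1qa* was 0.0396 ± 0.00677, 0.0465 ± 0.0118, 0.128 ± 0.0173 and 0.0780 ± 0.0139, in the same order. By contrast *C1qc* over *C1qa* stayed between group means of 0.814 and 0.869. For *C1qb* over *C1qa* the group means lay between 0.982 and 1.07. On ND the genotypes did not overlap in that ratio, at 1.05 to 1.10 in WT and 0.972 to 1.02 in *Glis3*-Pax8Cre. *Mertk* over *C1qa* was 0.406 ± 0.119 in WT(ND) and lower in the other groups, at 0.221 ± 0.0352, 0.234 ± 0.0390 and 0.185 ± 0.0258. *Gas6* over *Axl* did not overlap between genotypes on either diet, at 1.97 ± 0.314 and 3.10 ± 0.313 on ND and 2.64 ± 0.184 and 3.77 ± 0.330 under LID. The ratios were chosen after the values were seen and carry no test.

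**Figure D5:**
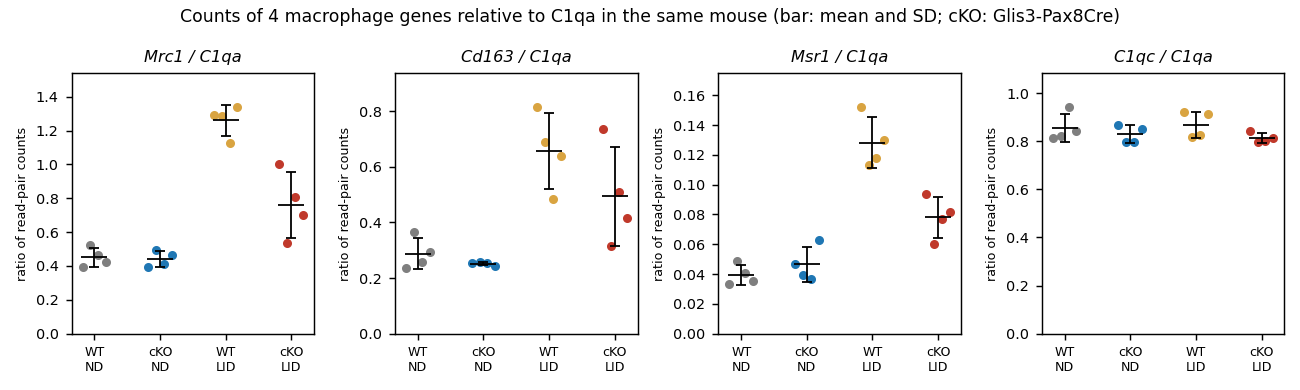
Ratio of read-pair counts of *Mrc1*, *Cd163*, *Msr1* and *C1qc* to *C1qa* in each mouse (vertical, from 0), by group, with the mean and SD in black and cKO for *Glis3*-Pax8Cre. The *Mrc1* ratio is 0.396 to 0.523 in WT(ND) and 1.13 to 1.34 in WT(LID), while the *C1qc* ratio covers 0.795 to 0.941 over all 16 mice.

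Mice also differed from each other across many members at once. In WT(ND), replicate 3 was the highest mouse of its group for 20 of the 33 tested members and replicate 1 the lowest for 19. *Glis3*-Pax8Cre(LID) replicate 4 was the lowest of its group for 22 members and *Glis3*-Pax8Cre(ND) replicate 4 for 21. Each of the last 2 mice was also above 100 CPM of thymocyte and T cell genes, as was WT(ND) replicate 1.

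Other genes of the same pathways were read from lists. Among all genes tested, 10.3% rose and 9.25% fell with the deletion on ND, and 14.9% rose and 15.4% fell with the deletion under LID. With LID, 20.9% rose and 20.8% fell in WT, and 13.1% rose and 12.3% fell in *Glis3*-Pax8Cre. The counts that follow are to be read against these shares. Of 27 tested further macrophage genes, 13 rose and 1 fell between genotypes on ND, with a median log2 fold change of 0.53, and 2 rose and 16 fell with LID in *Glis3*-Pax8Cre, with a median of -0.63. With LID in WT 7 rose and 8 fell. Among them *F13a1*, a transglutaminase of tissue macrophages, rose with LID in WT (log2 fold change 1.38, SE 0.22, adjusted p = 0.000156), as did *Lgals3*, which encodes galectin-3 (log2 fold change 1.24, SE 0.16, adjusted p = 2.1e-05), and the integrin gene *Itgam* (log2 fold change 1.24, SE 0.19, adjusted p = 9.72e-05). With the deletion under LID, 3 of the 27 rose and 3 fell. *Nos2*, the inducible nitric oxide synthase, was higher in that comparison (log2 fold change 1.75, SE 0.27, adjusted p = 0.000182).

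Of 19 genes of Fc receptor and ITAM signalling, 9 rose and 0 fell with the deletion on ND, where 10.3% and 9.25% of all genes did, and 10 rose and 1 fell with LID in WT, where 20.9% and 20.8% did. The gene that fell, *Fcgr4* (log2 fold change -0.93, SE 0.20, adjusted p = 0.00185), encodes an activating IgG receptor, and those that rose included the kinase *Lyn* (log2 fold change 1.23, SE 0.12, adjusted p = 1.33e-06), the phosphatase *Inpp5d* (log2 fold change 0.82, SE 0.26, adjusted p = 0.0205) and *Trem1* (log2 fold change 4.45, SE 0.50, adjusted p = 7.75e-06). Of 26 other complement genes, 3 rose and 4 fell with the deletion on ND (10.3% and 9.25% of all genes), and 5 rose and 10 fell with LID in WT (20.9% and 20.8%). Those that fell included *C7* (log2 fold change -2.07, SE 0.31, adjusted p = 8.09e-05), *Cd59a* (log2 fold change -1.16, SE 0.34, adjusted p = 0.0123) and *Cfd* (log2 fold change -0.93, SE 0.30, adjusted p = 0.0222). Adipocyte genes fell with LID in WT too, 4 of 5, and their part in these calls was not tested. With the deletion under LID, 3 of the 26 rose and 3 fell (14.9% and 15.4% of all genes). *Cd55*, a complement regulator, was higher in that comparison (log2 fold change 1.60, SE 0.19, adjusted p = 1.58e-05).

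Of 10 macrophage transcription factors, 4 rose and 2 fell between genotypes on ND (10.3% and 9.25% of all genes). The 4 were *Spi1*, *Irf8*, *Nr1h3* and *Tfec*, named after their values were seen, with *Spi1*, the gene of PU.1, at log2 fold change 0.53, SE 0.13, adjusted p = 0.0117. The 2 that fell are not named here. Summed over the 10, levels on ND overlapped between genotypes, at 293 to 403 CPM in WT and 272 to 341 CPM in *Glis3*-Pax8Cre. *Irf8* also rose with LID in both genotypes, and stood higher with the deletion under LID (log2 fold change 0.88, SE 0.094, adjusted p = 5.78e-06). In that last comparison 3 of the 10 rose and 1 fell (14.9% and 15.4% of all genes). *Cebpa* fell with LID in WT (log2 fold change -0.91, SE 0.21, adjusted p = 0.00261), as did 4 of 5 adipocyte genes, whose part in this call was not tested. Of 15 other genes of apoptotic cell uptake, 3 rose and 0 fell on ND (10.3% and 9.25% of all genes), and 6 rose and 3 fell with LID in WT (20.9% and 20.8%), among them the scavenger receptor *Stab1* (log2 fold change 1.53, SE 0.14, adjusted p = 5.83e-07) and the TAM ligand *Pros1* (log2 fold change 0.87, SE 0.11, adjusted p = 2.2e-05). Between genotypes under LID, 2 of the 15 rose and 5 fell (14.9% and 15.4% of all genes). There *Anxa1* was lower (log2 fold change -1.25, SE 0.31, adjusted p = 0.00654) and *Cd36* higher (log2 fold change 1.151, SE 0.24, adjusted p = 0.00224). Of 8 other genes of the colony-stimulating factor pathways, 2 rose and 0 fell on ND (10.3% and 9.25% of all genes), and 2 rose and 2 fell with LID in WT (20.9% and 20.8%). In the latter comparison *Il3ra* rose (log2 fold change 0.91, SE 0.18, adjusted p = 0.000772), and *Flt3l* (log2 fold change -0.81, SE 0.25, adjusted p = 0.0172) and *Csf3r* (log2 fold change -0.69, SE 0.25, adjusted p = 0.0363) fell. The summed level of this list was 77.8 to 110.7 CPM in WT(ND) and 137.5 to 165.6 CPM in WT(LID). With the deletion under LID, 0 of the 8 rose and 1 fell (14.9% and 15.4% of all genes). It was *Kitl*, the ligand of the stem cell factor receptor (log2 fold change -1.20, SE 0.12, adjusted p = 4.84e-06).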

How the data were processed

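Libraries of thyroid RNA from 16 mice were sequenced as read pairs. Per the labels and the study's methods, the authors discarded pairs of average base quality up to 20, aligned the remainder with STAR 2.5 to the mm10 genome, and counted pairs per RefSeq gene without regard to strand with featureCounts 1.5.0-p1. The deposited values are raw counts, which were not normalized. Overlap with an antisense gene cannot be told apart in such counts. The study's methods name TruSeq Stranded mRNA and TruSeq RNA kits, for mRNA isolation and for library preparation. Whether the libraries kept strand, and which of the study's sequencing instruments read which library, is not given in the sources used here. Labels do not say how mice were housed or bred, so p-values measure the spread between these 16 samples.

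Tests were run with edgeR 4.0.16 under R 4.3.3 (filterByExpr, TMM, robust quasi-likelihood fit of 4 group means over 16 mice, glmQLFTest), with Benjamini-Hochberg adjustment over 16630 genes. The SE is the absolute log2 fold change divided by the square root of F. The script was tested on simulated data. Libraries of a group were compared in 24 pairs, with chi-squared over degrees of freedom of 33.0 or more, so none was counted as a repeat. The 34 members, the lists and the tests were chosen with earlier results of these data known. Each member called in at least 1 comparison is given in every mouse, and the others by their range, except *Ptprc* and *Laptm5*, given in every mouse after their values were seen. Of each list of other genes of the same pathways, up to 4 genes are named. They are those called between genotypes under LID or with LID in WT with the largest absolute log2 fold change, at a mean of at least 1 CPM. Marker genes of other cell types were named outside this rule. The result of 1 gene chosen this way is not reported here. Exon lengths for levels per kb are unions of GENCODE M21 exons. Same-numbered mice of *Glis3*-Pax8Cre(ND) and *Glis3*-Pax8Cre(LID) deviated from their group means together, with correlations across genes of 0.23 to 0.64 in 4 pairs. The highest was for replicate 4, which in both groups was over 100 CPM of thymocyte and T cell genes. Mice with different numbers were not compared, so these values do not show that the numbers mark pairs, and the labels do not say so. Alternatives were RLE factors, library size alone, other filters, a replicate block, *Tg* left out, the 8 mice of a comparison alone, DESeq2 1.42.0, and leaving out each mouse. Leaving out the 4 mice over 100 CPM of thymocyte and T cell genes, and the block in the 8 *Glis3*-Pax8Cre mice, were chosen after seeing the data.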

Additional observations from a re-analysis of the deposited data

Results flagged for a closer look

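In 6 of 136 groups of 4 mice, the highest or lowest mouse lay farther from the others than Dixon's limit of 0.829 for 4 samples allows. Chance gives about 1 group in 20. *Ptprc* was at 415.4 CPM in *Glis3*-Pax8Cre(ND) replicate 4 (others 19.7 to 22.2 CPM), at 50.8 CPM in WT(LID) replicate 3 (others 17.3 to 18.3 CPM) and at 60.2 CPM in *Glis3*-Pax8Cre(LID) replicate 4 (others 13.5 to 20.05 CPM). *Laptm5* was at 201.7 CPM in *Glis3*-Pax8Cre(ND) replicate 4 (others 42.5 to 51.8 CPM). These are 3 of the 4 mice with over 100 CPM of thymocyte and T cell genes. *C3* was at 309.6 CPM in *Glis3*-Pax8Cre(LID) replicate 3 (others 255.5 to 257.6 CPM), and *Mrc1* at 40.2 CPM in *Glis3*-Pax8Cre(ND) replicate 2 (others 32.8 to 33.6 CPM).

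The effect of the *Glis3* deletion differed between diets in 11 of 33 members by the interaction test, 10 lower and 1 higher, where 7.41% and 4.43% of all genes were called. Without the 4 mice over 100 CPM of thymocyte and T cell genes, 6 were lower. The genotype difference under LID minus that on ND was -1.59 for *Lyve1*, -1.42 for *Msr1*, -1.18 for *Mrc1*, -1.14 for *Gas6*, -0.99 for *Axl*, -0.92 for *Lyz2*, -0.87 for *Fcgr1*, -0.80 for *Cd68*, -0.69 for *Fcer1g*, -0.63 for *Fcgr3* and 1.01 for *C3*, on the log2 scale.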

How the results depend on the processing

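With the adjusted p held under 0.01 and the change required to exceed 2-fold, members called higher and lower numbered 2 and 0 for the deletion on ND, 4 and 0 for LID in WT, 0 and 0 for LID in *Glis3*-Pax8Cre and 0 and 0 for the deletion under LID, with 3 lower in the interaction. Between genotypes under LID, the count of members called higher went from 5 to 1 with no filter on low counts, to 2 with the replicate block, to 2 with *Tg* left out and to 3 without the 4 mice over 100 CPM of thymocyte and T cell genes, and the count called lower went from 3 to 6 in the 8 mice alone. On ND the count called lower was 0 in the 8 mice alone and 2 with DESeq2. The interaction's count of lower calls went from 10 to 6 with library size alone, and to 6 without those 4 mice. Library size alone shifted the median of all genes, as log2 fold change, by -0.16 to 0.15 in the 4 comparisons. Apart from the stricter threshold and the smaller number of mice, the cause of these changes was not tested.

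Leaving out each of the 16 mice in turn gave 14 to 21 higher and 0 to 2 lower on ND, 9 to 12 higher and 1 to 5 lower for LID in WT, 1 higher and 12 to 17 lower for LID in *Glis3*-Pax8Cre, 1 to 5 higher and 2 to 4 lower between genotypes under LID, and 1 higher and 8 to 15 lower in the interaction. Between genotypes under LID, 5 fell to 1, 2 or 3 without any 1 of 13 mice. On ND, 2 members were lower without WT(ND) replicate 3 or replicate 2 of either *Glis3*-Pax8Cre group, and 0 without WT(ND) replicate 4 or *Glis3*-Pax8Cre(ND) replicate 4. *Lyve1* lost its ND call without WT(ND) replicate 4 (adjusted p = 0.0556).

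The sign of *Ptprc* and *Laptm5*, which were called in no comparison, turned in some settings. Between genotypes under LID, *Laptm5* was at 0.0047 and went to -0.0067 with *Tg* left out, -0.0096 with at least 10 counts in every mouse and -0.033 with the replicate block, and *Ptprc* went from 0.073 to -0.42 with the block and -0.11 without the 4 mice. For LID in WT, *Laptm5* went from 0.051 to -0.12 with library size alone and -0.13 without the 4 mice, and *Ptprc* from 0.15 to -0.014 and -0.12. Leaving out each mouse moved *Laptm5* over -0.16 to 0.19 between genotypes under LID and -0.13 to 0.15 for LID in WT. *Ptprc* covered -0.66 to 0.62 between genotypes under LID, -0.39 to 0.43 for LID in WT, -0.16 to 2.70 between genotypes on ND, -2.86 to 0.38 for LID in *Glis3*-Pax8Cre and -3.004 to 0.22 in the interaction.

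Of calls near the threshold, *Csf1r* on ND was lost in 13 and *Fcer1g* with LID in WT in 14 of 25 settings, and the interactions of *Fcgr3* and *Fcgr1* in 15 and 10 of 24. Other than in the 2 *Glis3*-Pax8Cre groups, same-numbered mice had correlations of -0.52 to 0.14. What the numbers mark is not given in the labels. Calls with LID in WT were also lost in 7 of 25 settings for *Lyz2*, 5 for *Csf1*, 4 for *Aif1* and 1 for *Fcgr3*, and those with LID in *Glis3*-Pax8Cre in 9 of 26 for *Tyrobp*, 7 for *Fcer1g*, 6 for *C3ar1* and 4 for *Csf2ra*. The interactions of *Lyz2* and *Fcer1g* were lost in 2 of 24 each. *Marco* had at most 14 read pairs in a mouse, and the lowest counts of tested members were 30 for *Timd4*, 57 for *Trem2*, 59 for *C5ar1* and 64 for *Msr1*.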
